A study of Mus musculus with 15 samples.

Results

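The clustered protocadherin genes are the members of the alpha, beta and gamma protocadherin clusters, which lie one after the other on mouse chromosome 18. Members were all genes of the deposited table whose symbol begins with Pcdha, Pcdhb or Pcdhg. This rule gave 58 of 24498 genes, of which 14 were alpha, 22 beta and 22 gamma. On GRCm38 (GENCODE M21) the alpha genes spanned chr18:36930184-37187661, the beta genes chr18:37264938-37524479 and the gamma genes chr18:37661793-37841873, all on the plus strand. RNA was sequenced from plated mouse hippocampal neurons, a primary culture, after 7 days of differentiation and a treatment of 24 h. Cultures received 5 mM acetate or medium as vehicle, each with 20 µM of an ACSS2 inhibitor or with DMSO. The 15 libraries comprised 4 of DMSO vehicle, 4 of DMSO acetate, 3 of inhibitor vehicle and 4 of inhibitor acetate, and a library is named below by its group and replicate number. Acetate is the product of alcohol breakdown that reaches the brain during heavy drinking, and ACSS2 turns it into acetyl-CoA, the donor of histone acetyl groups. The comparisons therefore ask how clustered protocadherin RNA responds to acetate, and whether that response differs when ACSS2 is inhibited.

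Clustered protocadherins are cadherin-like proteins of the neuronal surface that bind copies of themselves on other membranes. A neuron expresses its own combination of them, chosen promoter by promoter, and this gives the branches of a cell an identity by which they recognise and avoid each other. In the alpha and gamma clusters each gene contributes its own large first exon, which is spliced to constant exons common to the whole cluster. Beta genes have a single coding exon and no constant exons. Promoter choice depends on CTCF and cohesin, which loop promoters to distant enhancers, and on DNA methylation. The C-type genes at the ends of the alpha and gamma clusters (Pcdhac1, Pcdhac2, Pcdhgc3, Pcdhgc4 and Pcdhgc5) are expressed more evenly among neurons than the others.

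Between 19688231 and 39234799 reads per library were counted on genes, of which 4732 to 12678 fell on members. Values below are in CPM, a gene's reads per unit of library size after edgeR's TMM scaling, on which 3 counts corresponded to 0.0832 to 0.162 CPM. After a filter on low counts, 50 of the 58 members were among the 15075 genes tested, namely 8 alpha, 20 beta and 22 gamma. Markers of neurons were abundant in every library, and both they and markers of other cells differed between groups. Pan-neuronal markers summed to 5085 to 7839 CPM in DMSO vehicle and 9888 to 11258 CPM in DMSO acetate. With the inhibitor these sums were 5702 to 7724 CPM in vehicle and 9245 to 10006 CPM in acetate. Summed over 14 microglial markers, the level was 197 to 920 CPM in DMSO vehicle, against 44.9 to 786 CPM in inhibitor vehicle, against 58.1 to 86.1 and 50.0 to 104 CPM in DMSO acetate and inhibitor acetate. None of these markers was at 0 throughout a group. A score of non-neuronal markers (the mean log2 CPM over astrocyte, oligodendrocyte, microglial, vessel and meningeal lists) was 3.72 in DMSO vehicle 1 and 2.33 in inhibitor vehicle 2, and 4.52 to 5.00 in the other 5 vehicle libraries. It was 2.26 to 2.601 in the 8 acetate libraries. DMSO vehicle 1 and inhibitor vehicle 2 thus stood apart from their groups, and the main counts of the acetate comparisons are also given without them. In bulk RNA, fewer cells of a type and less RNA per cell cannot be told apart.

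The 3 clusters were expressed at different levels. Over all libraries the gamma genes held 96431 counts, the beta genes 18832 and the alpha genes 5743. Per kilobase of exon that no other gene of the same strand shares, the median tested gamma gene had a level of 2.35 CPM, the median beta gene 0.442 CPM and the median alpha gene 0.449 CPM. Pcdhgc3 was the most abundant member at 29.3 CPM per kilobase, followed by Pcdhga11 at 6.52 and Pcdhgc4 at 5.00. The most abundant alpha gene was Pcdhac2, at 2.35 CPM per kilobase. Pcdha4, Pcdha6, Pcdha7 and Pcdhb1 had no count in any library. The constant exons belong to Pcdha4, Pcdha6 and Pcdha7 too, so reads from those exons were not credited to every alpha gene. Ambiguous reads, the class that the counting tool sets aside when a read fits several genes, were 0.489% to 0.603% of a library. On the CPM scale they were 7813 to 9368 in DMSO vehicle and 10420 to 11699 in DMSO acetate, without overlap. In inhibitor vehicle and inhibitor acetate they were 8243 to 9601 and 9168 to 9664, which overlapped. These levels are far above the gamma total of any library. How reads on the constant exons were assigned is not stated in the sources used here. Ambiguous reads come from all genes, and how many came from the clusters is not known. The gamma total of a library was 169 to 399 CPM, so the uncertainty of alpha and gamma levels is of unknown size. Of the remaining untested genes, Pcdhac1 reached at most 19 counts in a library, with 113 counts over all of them.

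**Figure D1:**
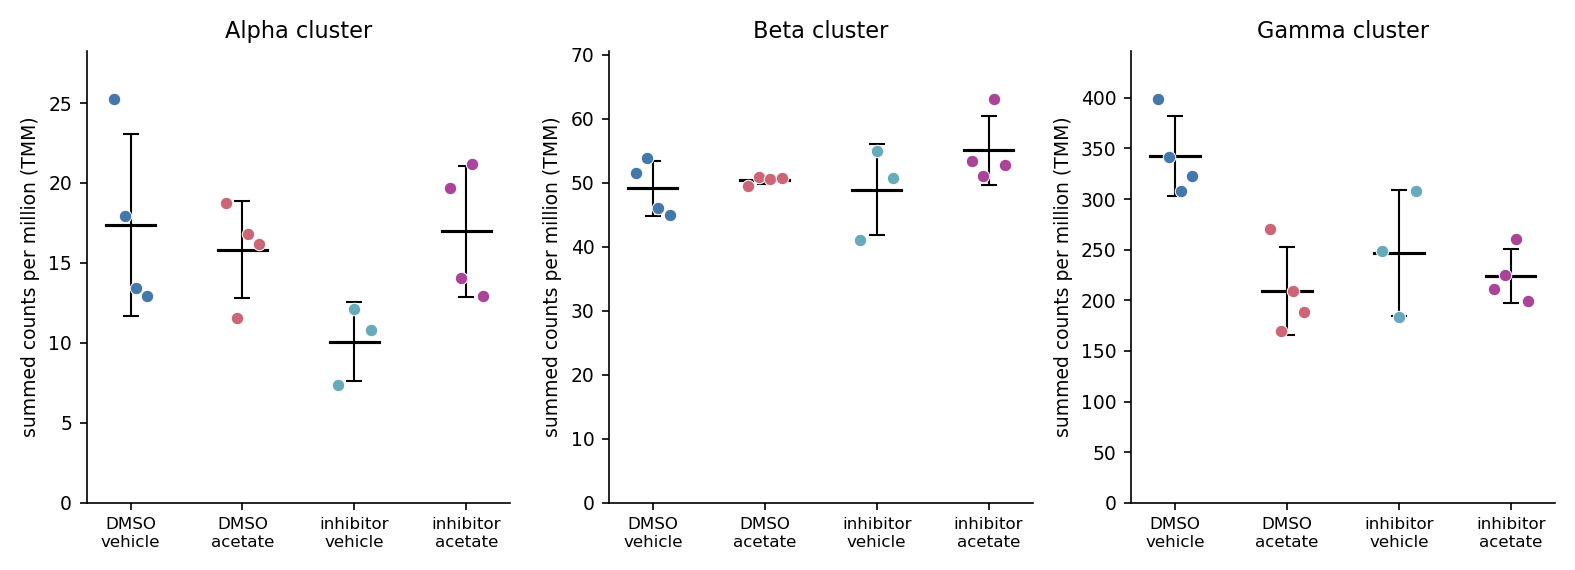
Summed level of each cluster in CPM (vertical axis, from 0) in each of the 15 libraries, by group (horizontal axis); points are libraries, bars the group means and whiskers the SD. The gamma total of all 4 DMSO acetate libraries lies below that of all 4 DMSO vehicle libraries, while the beta totals of these groups overlap.

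With acetate in DMSO most gamma genes fell, while 1 beta gene and no alpha gene passed the test. Gamma genes together had 399, 341, 308 and 322 CPM in DMSO vehicle 1 to 4, and 270, 169, 209 and 189 CPM in DMSO acetate 1 to 4. Every acetate library was below every vehicle library, and the mean was 38.9% lower (343 ± 39.7 against 209 ± 43.6 CPM, SD, n = 4 each). Of 22 gamma genes, 18 fell and 0 rose at an adjusted p under 0.05 in edgeR's quasi-likelihood test, whereas 27.5% of all tested genes fell and 23.7% rose. The median log2 fold change of the gamma genes was -0.74, beside -0.03 for all tested genes, and 21 of 22 were negative. In 16 gamma genes the DMSO acetate libraries lay entirely below the DMSO vehicle libraries, and 23.3% of all tested genes did so.

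Within groups, too, single libraries were high or low over many gamma genes at once. Within DMSO vehicle, library 1 had the highest level of 15 of the 22 gamma genes and library 3 the lowest level of 11. Within DMSO acetate, library 1 had the highest level of 20 of the 22 gamma genes and library 2 the lowest level of 14. Within inhibitor vehicle, library 3 was highest in 20 and library 2 lowest in 19, and within inhibitor acetate library 3 was highest in 19. The beta genes showed this in some groups too: of 20, inhibitor vehicle 2 was highest in 13 and inhibitor acetate 3 in 15, while no DMSO acetate library was highest in more than 6. Of the 8 tested alpha genes, DMSO vehicle 1 and inhibitor acetate 3 were each highest in 6. DMSO acetate 2 and inhibitor vehicle 1 were each lowest in 6 alpha genes. These ranks describe single libraries, and their relation to culture or handling was not tested.

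Both variable subfamilies fell. Of the gamma A genes, 10 of 12 fell, with a median log2 fold change of -0.70, and of the gamma B genes 6 of 7 fell, with a median of -0.76. One gamma B member, Pcdhgb8, is annotated as a transcribed pseudogene and had 6 to 37 counts in a library. Pcdhga7, a gamma A gene, had 15.99, 14.4, 11.3 and 12.8 CPM in DMSO vehicle, against 9.37, 5.56, 6.13 and 6.76 CPM in DMSO acetate. The groups did not overlap, and Pcdhga7 had the smallest p of the cluster (log2 fold change -0.97, SE 0.17, edgeR's adjusted p = 0.000412), a fall by 48.8%. Pcdhga11, the second most abundant member per kilobase, had 27.5, 22.3, 20.6 and 21.8 CPM in DMSO vehicle, against 17.2, 10.8, 12.2 and 11.3 CPM in DMSO acetate. All 4 acetate libraries were again lower (log2 fold change -0.84, SE 0.16, edgeR's adjusted p = 0.000796). Of the 2637 exonic bases that are Pcdhga11's own on the plus strand, 1256 are free of genes on the minus strand. Pcdhga10 had 6.30 to 8.13 CPM in DMSO vehicle, against 2.004 to 4.24 CPM in DMSO acetate, without overlap (log2 fold change -1.11, SE 0.23, edgeR's adjusted p = 0.0014). All exonic bases of Pcdhga10 that are its own on the plus strand overlap genes annotated on the minus strand, so its value rests on how strand was handled, which the sources used here do not state.

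Of the C-type genes in the gamma cluster, Pcdhgc3 and Pcdhgc5 fell and Pcdhgc4 did not pass the test. Pcdhgc3, which takes part in the branching of dendrites, had 170, 146, 125 and 134 CPM in DMSO vehicle, against 105, 67.4, 83.9 and 76.5 CPM in DMSO acetate. The groups did not overlap, and Pcdhgc3 fell by 0.79 on the log2 scale (SE 0.18, edgeR's adjusted p = 0.00217). It accounted for 41.9% ± 0.984 of gamma counts in DMSO vehicle and 39.8% ± 0.776 in DMSO acetate (SD, n = 4 each). Without Pcdhgc3 the gamma total was 36.5% lower. Pcdhgc5 had 10.6, 9.55, 8.48 and 10.1 CPM in DMSO vehicle, against 8.21, 6.19, 6.51 and 4.43 CPM in DMSO acetate. It fell as well, without overlap (log2 fold change -0.61, SE 0.19, edgeR's adjusted p = 0.0135).

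Pcdhgc4, which is required for the survival of interneurons, had 21.6, 15.7, 16.5 and 14.8 CPM in DMSO vehicle, against 20.7, 13.4, 15.1 and 13.8 CPM in DMSO acetate. The groups overlapped and no change passed the test (log2 fold change -0.12, SE 0.14, edgeR's adjusted p = 0.516). The interval of 2 SE on either side runs from -0.41 to 0.17, which does not include the fold of Pcdhgc3. Pcdhgc4 made up 4.99% ± 0.449 of gamma counts in DMSO vehicle but 7.54% ± 0.319 in DMSO acetate. The other 3 gamma genes that did not pass, named here after their values were seen, were Pcdhga6 at -0.10, Pcdhga9 at 0.00 and Pcdhgb4 at -0.46 (edgeR's adjusted p = 0.0507). Pcdhga6 and Pcdhga9 lie between neighbours that fell, Pcdhga5 and Pcdhga7 for the former and Pcdhgb5 and Pcdhgb6 for the latter.

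**Figure D2:**
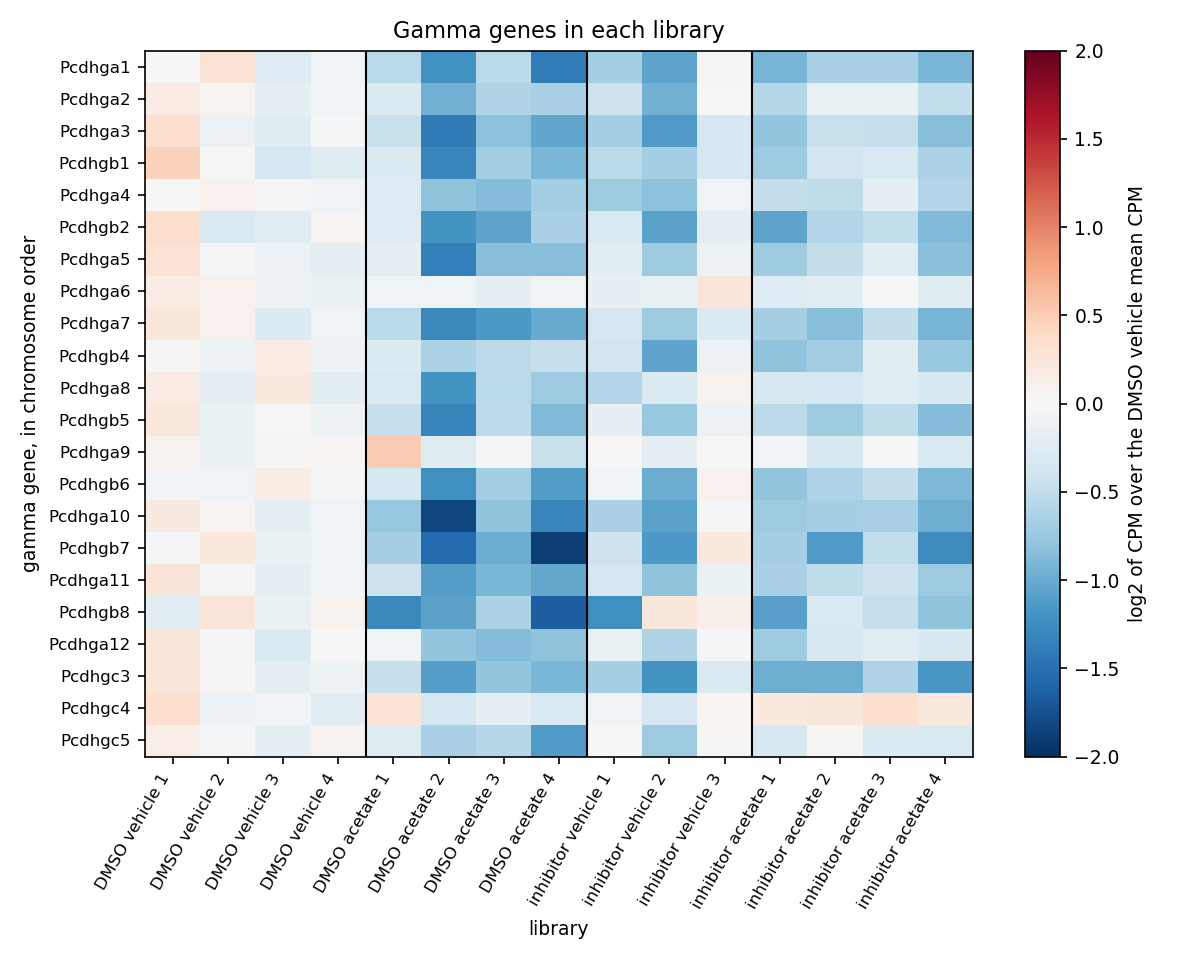
Level of each of the 22 gamma genes (rows, in chromosome order) in each of the 15 libraries (columns, groups parted by lines), as log2 of CPM over the gene's mean CPM in DMSO vehicle; blue is lower and red higher. The DMSO acetate columns are blue for most genes, while the rows of Pcdhga6, Pcdhga9 and Pcdhgc4 stay pale; columns such as DMSO acetate 2 and inhibitor vehicle 2 are dark across many rows.

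In the beta cluster 1 of 20 tested genes rose and 0 fell, and the median log2 fold change was 0.005. Pcdhb18 had 3.76, 3.23, 3.66 and 3.904 CPM in DMSO vehicle, against 4.69, 4.80, 6.13 and 7.14 CPM in DMSO acetate. Each acetate library was above each vehicle library (log2 fold change 0.64, SE 0.17, edgeR's adjusted p = 0.00595), and 22.1% of all tested genes were separated in that direction. On the scale of pan-neuronal markers its log2 fold change was -0.04. A rise in 1 of 20 genes is below the 23.7% of all tested genes that rose. Pcdhb22, one of the most abundant beta genes, had 5.78 to 7.66 CPM in DMSO vehicle, against 5.85 to 7.68 CPM in DMSO acetate, and these ranges overlapped. Pcdhb9, another of them, had 5.00 to 7.01 and 4.11 to 4.94 CPM, which did not overlap, but its log2 fold change of -0.36 (SE 0.15) missed the threshold with an edgeR adjusted p of 0.0595. The summed beta level was 49.1 ± 4.27 CPM in DMSO vehicle, against 50.4 ± 0.613 CPM in DMSO acetate (SD, n = 4 each).

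Of 8 tested alpha genes 0 passed in either direction, and the median log2 fold change was -0.12. Pcdhac2, which guides the spacing of serotonergic axons, had 11.96, 7.82, 6.30 and 5.51 CPM in DMSO vehicle, against 8.93, 5.53, 7.59 and 8.76 CPM in DMSO acetate. The ranges overlapped, with DMSO vehicle 1 above all others (log2 fold change -0.04, SE 0.23, edgeR's adjusted p = 0.898). The alpha total was 12.9 to 25.2 CPM in DMSO vehicle, against 11.6 to 18.8 CPM in DMSO acetate. The unequal response of the clusters appears in their ratio: there were 7.73, 6.34, 6.69 and 7.16 gamma counts per beta count in DMSO vehicle, and 5.46, 3.33, 4.13 and 3.72 in DMSO acetate. This ratio does not depend on how libraries are scaled, and the groups did not overlap.

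**Figure D3:**
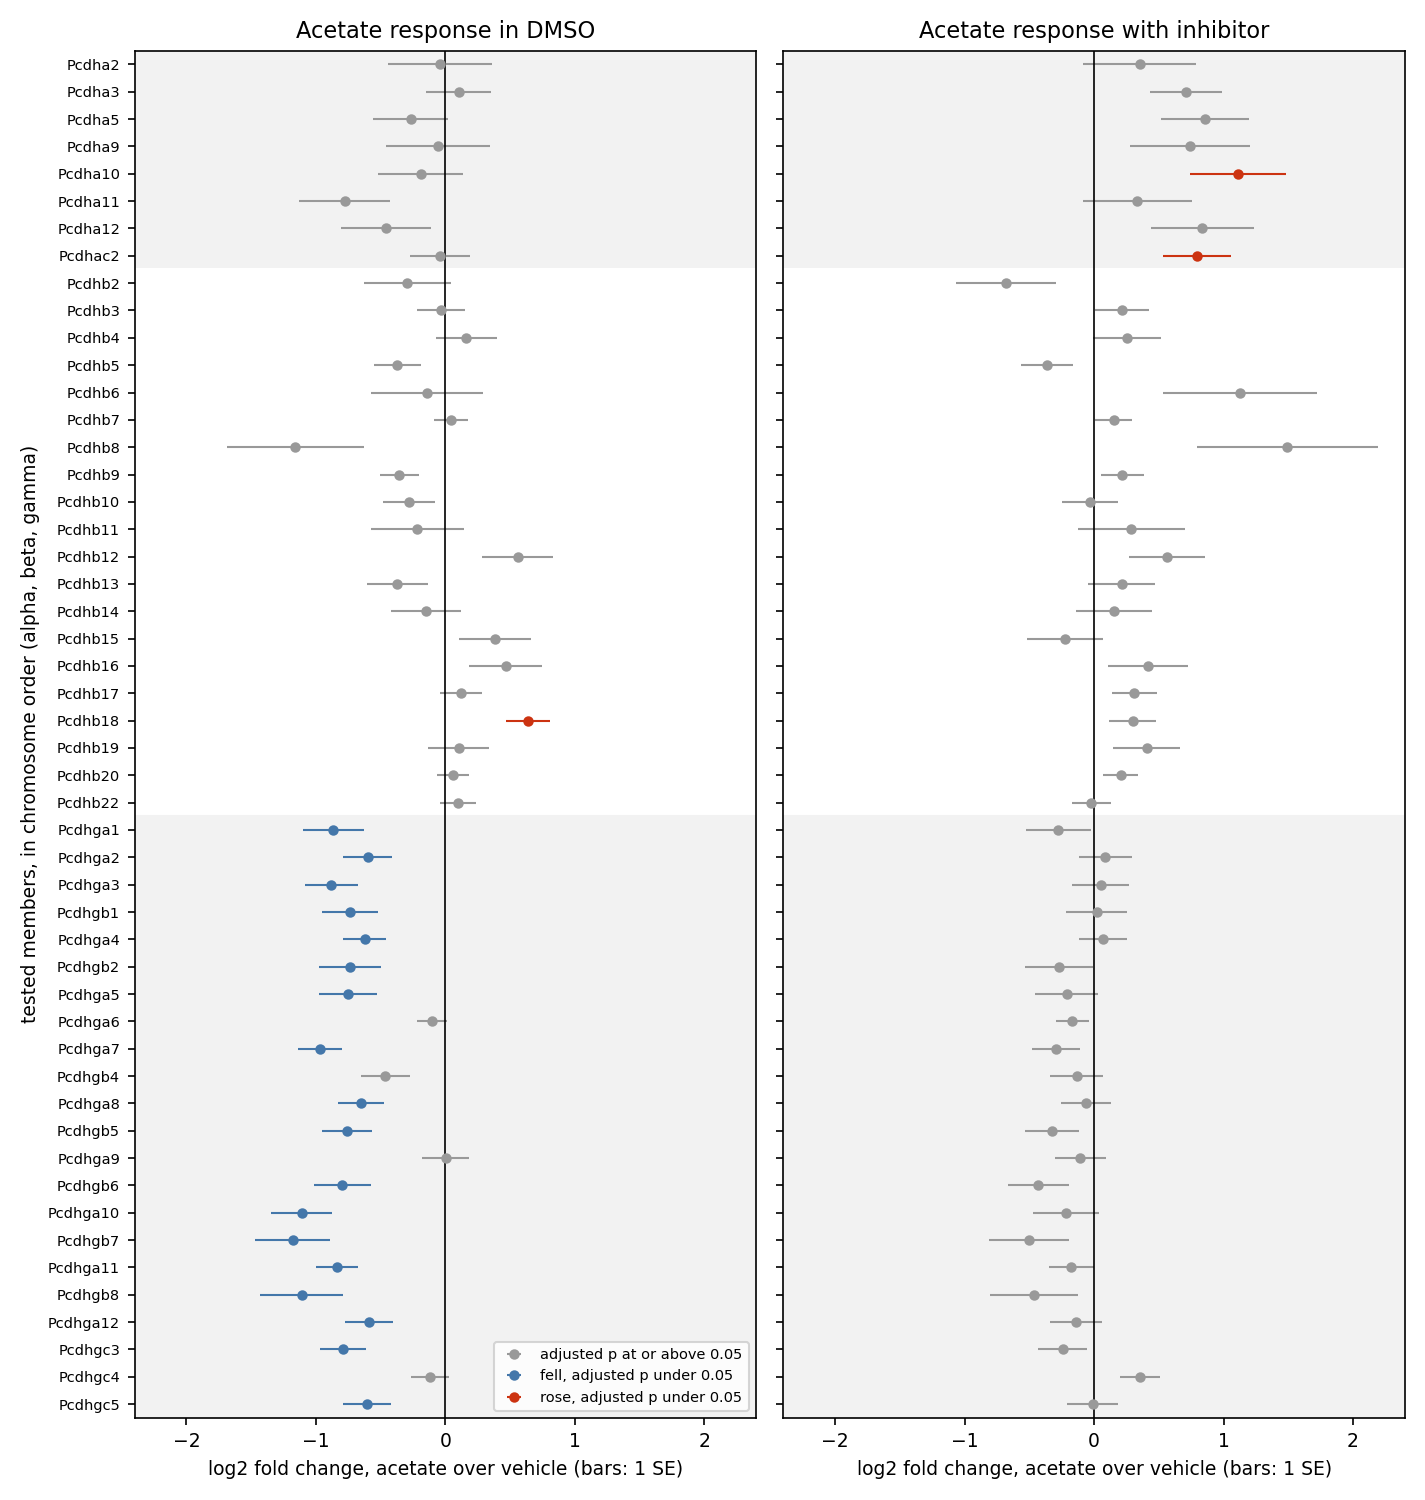
Log2 fold change of acetate over vehicle (horizontal axis, bars 1 SE) for the 50 tested members in chromosome order (vertical axis), with DMSO on the left and with the inhibitor on the right; shading separates alpha, beta and gamma, and coloured points passed edgeR's test at an adjusted p under 0.05. On the left 18 gamma genes are marked as lower and Pcdhb18 as higher; on the right Pcdha10 and Pcdhac2 are marked as higher and no gamma gene is marked.

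The gamma calls depended on how cell makeup was treated. The non-neuronal score separated DMSO vehicle from DMSO acetate without overlap, so in these groups cell makeup and acetate cannot be told apart. In a fit that included the score as a covariate, 1 gamma gene fell (Pcdhga7, log2 fold change -0.80, SE 0.26), and the gamma median was -0.40, beside -0.01 for all tested genes. Without DMSO vehicle 1 and inhibitor vehicle 2, 19 gamma genes fell and the median was -0.62. When libraries were scaled on pan-neuronal markers, 12 of 14 of which rose with acetate in DMSO, the median of all tested genes moved to -0.72. In that fit 22 gamma, 14 beta and 6 alpha genes fell. The shares of all tested genes called in these alternative fits are not given here, so the counts stand without that background. On that scale the gamma median was -1.41, the beta median -0.68 and the alpha median -0.76. A change of scale shifts all genes of a library alike, so the order of the clusters on it is not a separate result.

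In single libraries the score and the gamma level were ordered as follows. DMSO vehicle 1 had the lowest score of its group (3.72) and the highest gamma total (399 CPM). Inhibitor vehicle 2, with a score of 2.33, had the lowest gamma total of its group, 184 CPM, beside 248 and 308 CPM in inhibitor vehicle 1 and 3 at scores of 4.52 and 4.80. The part of cell makeup in the gamma result was not tested beyond these values.

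**Figure D4:**
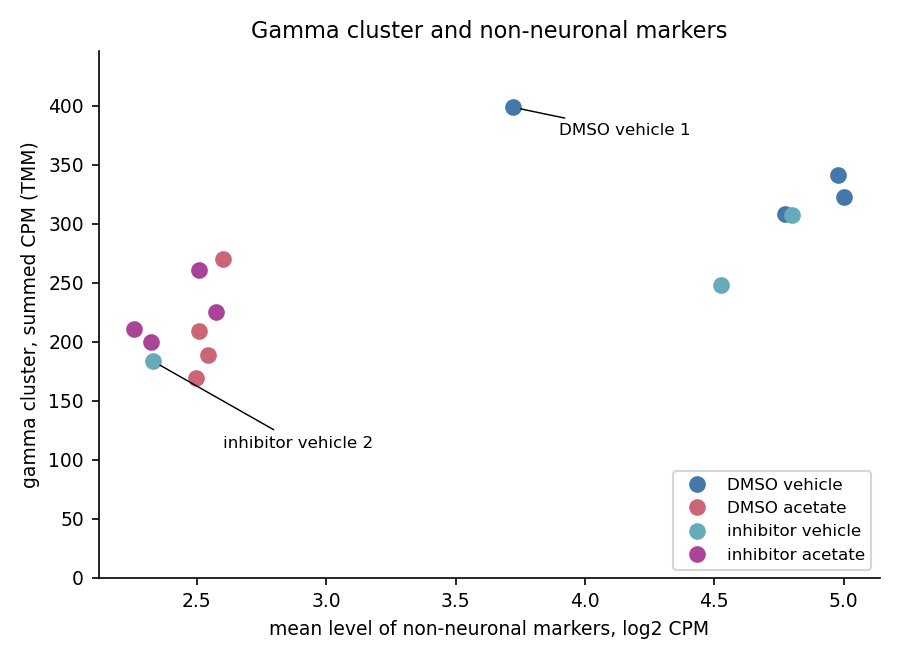
Summed gamma level in CPM (vertical axis, from 0) against the mean log2 CPM of non-neuronal markers (horizontal axis), one point per library, coloured by group. The 8 acetate libraries and inhibitor vehicle 2 lie together at a low score with 169 to 270 CPM, and DMSO vehicle 1 has the highest gamma level, 399 CPM, at a score between the clusters of points.

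With the inhibitor present, 2 alpha genes rose with acetate, in calls that were lost without single libraries, and no gamma gene passed the test. Of 8 alpha genes 2 rose and 0 fell, and all 8 log2 fold changes were positive, with a median of 0.77. Among all tested genes 14.5% rose and 20.6% fell, with a median of -0.03. Single libraries were low or high over most alpha genes, as given above, so the 8 signs are not separate results. Pcdhac2 had 3.74, 5.38 and 4.35 CPM in inhibitor vehicle and 9.10, 6.75, 9.18 and 6.03 CPM in inhibitor acetate. The groups did not overlap (log2 fold change 0.79, SE 0.26, edgeR's adjusted p = 0.0304). Pcdha10 had 0.348, 0.456 and 0.529 CPM in inhibitor vehicle and 1.26, 0.643, 1.34 and 0.630 CPM in inhibitor acetate. It also rose without overlap (log2 fold change 1.11, SE 0.37, edgeR's adjusted p = 0.0314). Pcdha3 and Pcdha12, the next most abundant alpha genes, had log2 fold changes of 0.71 and 0.84 with edgeR adjusted p-values of 0.0614 and 0.115.

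Both alpha calls rested on single libraries. Neither Pcdhac2 nor Pcdha10 passed when inhibitor vehicle 1, inhibitor vehicle 3, inhibitor acetate 1 or inhibitor acetate 3 was left out, and their log2 fold changes over all such fits were 0.68 to 0.94 and 0.92 to 1.27. Without inhibitor vehicle 2, 6 members rose, and without that library and DMSO vehicle 1 8 rose, 5 of them alpha and 3 beta. On the scale of pan-neuronal markers 0 rose and the alpha median was 0.27, and 0 rose at a median of 0.33 when the score was a covariate. The alpha total was 7.34, 12.1 and 10.8 CPM in inhibitor vehicle and 19.7, 14.1, 21.2 and 12.96 CPM in inhibitor acetate, without overlap. Inhibitor vehicle was the low group: its mean was 10.1 CPM, beside 17.0 in inhibitor acetate, 17.4 in DMSO vehicle and 15.8 in DMSO acetate.

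No gamma gene passed in the presence of the inhibitor (0 of 22 rose, 0 fell), and the median log2 fold change was -0.17. The gamma total was 248, 184 and 308 CPM in inhibitor vehicle and 211, 225, 261 and 199.5 CPM in inhibitor acetate. These ranges overlapped, with inhibitor vehicle 2 below all 4 acetate libraries. Pcdhgc3 had 90.6, 63.1 and 117 CPM in inhibitor vehicle and 72.8, 73.0, 95.0 and 64.3 CPM in inhibitor acetate, which also overlapped (log2 fold change -0.24, SE 0.19, edgeR's adjusted p = 0.347). Its interval of 2 SE, -0.63 to 0.14, included both a fall and no change. Pcdhgc5 stood at -0.01 (SE 0.20). Without DMSO vehicle 1 and inhibitor vehicle 2, 4 gamma genes fell and the gamma median was -0.31, and on the pan-neuronal scale 17 gamma genes fell. That scale lowered the other clusters too. The log2 ratio of beta totals went from 0.17 to -0.35 and that of alpha totals from 0.75 to 0.25. The shares of all tested genes called in these fits are not given here.

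Pcdhgc4 had 16.4, 13.6 and 17.7 CPM in inhibitor vehicle and 19.7, 20.1, 21.7 and 19.9 CPM in inhibitor acetate. All acetate libraries were higher, and 16.4% of all tested genes were separated in that direction and 16.4% in the other, but the log2 fold change of 0.36 (SE 0.16) did not pass edgeR's test (adjusted p = 0.0926). In all, 4 of the 50 members were separated upwards and 0 downwards: Pcdha10, Pcdhac2, Pcdhgc4 and, named after its values were seen, Pcdhb6. No beta gene passed (0 of 20), and the beta median was 0.22. Pcdhb18 had 3.82, 5.20 and 5.79 CPM in inhibitor vehicle and 6.44, 4.91, 6.35 and 6.61 CPM in inhibitor acetate, and its log2 fold change of 0.30 (SE 0.18) had an edgeR adjusted p of 0.217.

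The ratio of Pcdhgc4 to Pcdhgc3, noticed after the values were seen and given with no test, was as follows. It was 0.127, 0.108, 0.132 and 0.110 in DMSO vehicle and 0.198, 0.199, 0.180 and 0.181 in DMSO acetate. In inhibitor vehicle it was 0.181, 0.216 and 0.151, and in inhibitor acetate 0.270, 0.276, 0.228 and 0.309. The libraries did not overlap for acetate against vehicle in either arm, nor for inhibitor against DMSO with or without acetate. Inhibitor vehicle and DMSO acetate overlapped. Of the exonic bases that are Pcdhgc3's own on the plus strand, 1821 of 3380 are free of genes on the minus strand, and how strand was handled in counting is not stated in the sources used here.

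**Figure D5:**
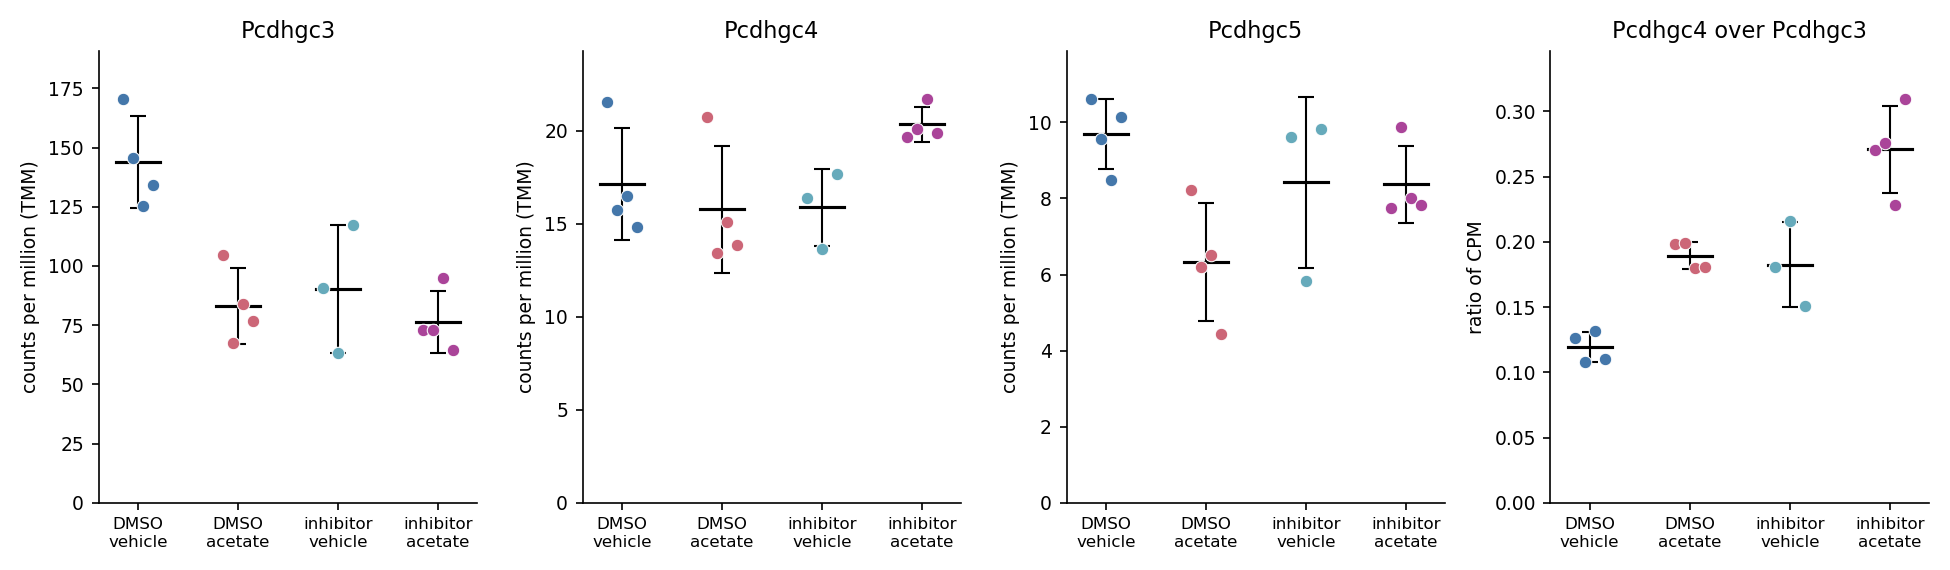
Levels of the gamma C-type genes Pcdhgc3, Pcdhgc4 and Pcdhgc5 in CPM, and the ratio of Pcdhgc4 to Pcdhgc3 (vertical axes, all from 0), in each library by group; bars are group means and whiskers the SD. Pcdhgc3 is highest in DMSO vehicle, Pcdhgc4 is highest on average in inhibitor acetate, and the ratio is lowest in DMSO vehicle (0.108 to 0.132) and highest in inhibitor acetate (0.228 to 0.309).

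A loss of significance in the inhibitor arm does not show that the responses differ, so the difference itself was tested as an interaction. Of 50 members 0 passed in edgeR's quasi-likelihood test, in which 0.0133% of all tested genes were higher and 0.00663% lower; the smallest adjusted p among members was 0.105. At an unadjusted p under 0.05, 16 members had a more positive response with the inhibitor and 0 a more negative one, beside 7.83% and 12.8% of all tested genes. The median difference in log2 response was 0.59 for gamma, 0.97 for alpha and 0.17 for beta genes, and 0.002 for all tested genes. For Pcdhgc3 it was 0.55 (SE 0.26, edgeR's adjusted p = 0.258) and for Pcdhga7 0.67 (SE 0.25, edgeR's adjusted p = 0.149). DESeq2 called 1 member, and without inhibitor vehicle 3 edgeR called 4, all of them gamma A genes.

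The vehicle groups, which are the baselines of these responses, were compared as well. Without acetate, 0 of 50 members passed between inhibitor and DMSO in edgeR's test, beside 3.47% of all tested genes that rose and 1.99% that fell. At an unadjusted p under 0.05, 14 members were lower with the inhibitor and 2 higher, beside 11.3% and 14.1% of all tested genes. All 22 gamma and all 8 alpha genes had negative log2 fold changes, with medians of -0.37 and -0.81. Both libraries that stood apart from their groups enter this comparison. The log2 ratio of gamma totals was -0.48, and it was -0.30 without inhibitor vehicle 2 and -0.67 without inhibitor vehicle 3. For alpha totals the ratio was -0.79, and it was -0.55 without DMSO vehicle 1 and -0.94 without inhibitor vehicle 2. In 14 members the inhibitor libraries were entirely below the DMSO libraries and in 1 above, as in 7.36% and 9.34% of all tested genes. Pcdhgc3 had the smallest adjusted p (log2 fold change -0.67, SE 0.20, edgeR's adjusted p = 0.0563), and Pcdhac2 was at -0.82 (SE 0.26, edgeR's adjusted p = 0.0735). DESeq2 called 4 members lower here, Pcdhgc3 and Pcdhac2 among them, and edgeR called 4, Pcdhgc3 among them, without inhibitor vehicle 3. It called 2 without DMSO vehicle 4 and 6 in the fit that included the score.

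With acetate present in both groups, no member passed between inhibitor and DMSO. Of 50 members 0 passed, beside 2.36% of all tested genes that rose and 3.42% that fell in edgeR's test, and DESeq2 called 0 as well. At an unadjusted p under 0.05, 2 members were higher and 0 lower, beside 9.37% and 12.6% of all tested genes. The groups were separated upwards in 1 member and downwards in 0, beside 8.96% and 12.4%. Median log2 fold changes were 0.23 for gamma, 0.15 for alpha and 0.11 for beta genes. Gamma totals in DMSO acetate and inhibitor acetate, 209 ± 43.6 and 224 ± 26.6 CPM (SD, n = 4 each), differed by less than their spread. Pcdhgc4 had a log2 fold change of 0.36 (SE 0.14, edgeR's adjusted p = 0.152), and it passed when DMSO acetate 1 was left out (0.53, SE 0.13). Each group enters 2 of these comparisons, so they are not independent of each other.

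Genes that control promoter choice in the clusters were examined next. Of 25 tested regulators, 4 rose and 6 fell with acetate in DMSO, with a median log2 fold change of -0.006, and 6 rose and 0 fell with the inhibitor, with a median of 0.20. In DMSO these are 16% and 24% of the list, near or below the 23.7% and 27.5% of all tested genes, and with the inhibitor 24% and 0%, beside 14.5% and 20.6%. Ctcf, whose protein marks the active promoters, did not pass in either arm: its log2 fold changes were 0.34 (SE 0.14, edgeR's adjusted p = 0.0578) and 0.37 (SE 0.16, adjusted p = 0.0776). The cohesin subunit gene Smc3 rose in both arms, by 0.88 (SE 0.17, edgeR's adjusted p = 0.000716) and 0.57 (SE 0.18, adjusted p = 0.0248), whereas the subunit gene Rad21 stood at -0.02 and 0.27 with edgeR adjusted p-values of 0.912 and 0.24. Pds5b, a cohesin regulator, rose by 0.49 and 0.62 (edgeR's adjusted p = 0.00233 and 0.0023), and Wiz, a zinc finger partner of the histone methyltransferases G9a and GLP, by 0.41 and 0.33 (edgeR's adjusted p = 0.000831 and 0.00996). The DNA methyltransferase gene Dnmt3a rose by 0.44 and 0.63 (edgeR's adjusted p = 0.00162 and 0.00084), and Tet2, which oxidises methylated DNA, fell by 0.77 in DMSO (adjusted p = 0.00107) and stood at -0.04 with the inhibitor (adjusted p = 0.891). Smchd1, a chromatin protein that silences clustered protocadherins, did not pass, at -0.20 and 0.29 (edgeR's adjusted p = 0.293 and 0.185).

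Other adhesion genes were counted beside the same shares of all tested genes, 23.7% risen and 27.5% fallen in DMSO and 14.5% and 20.6% with the inhibitor. Of 11 tested protocadherins outside the clusters, 2 rose and 4 fell with acetate in DMSO (median 0.07), and 1 rose and 2 fell with the inhibitor (median -0.01). Pcdh10 had 43.2 ± 7.09 CPM in DMSO vehicle, against 23.0 ± 1.96 CPM in DMSO acetate (SD, n = 4 each), and it fell in both arms, by 0.91 (edgeR's adjusted p = 0.00011) and 0.65 (adjusted p = 0.00397). Pcdh18 fell by 0.91 in DMSO and stood at -0.03 with the inhibitor, Pcdh15 fell by 0.97 and 0.77, and Pcdh20 rose by 0.39 and 0.22 (edgeR's quasi-likelihood test throughout). With the inhibitor, Pcdh15 lost its call when inhibitor vehicle 1 or 3 or inhibitor acetate 1 or 3 was left out, and Pcdh20 when any inhibitor library other than inhibitor acetate 2 was left out. Of 15 tested classical and related cadherins, 3 rose and 1 fell in DMSO (median 0.11), and 3 rose and 2 fell with the inhibitor (median 0.26). Cdh6 fell by 0.38 and 0.63, Cdh11 rose by 0.61 and 0.82, Cdh15 rose by 0.97 in DMSO, and Cdh13 rose by 0.24 with the inhibitor. The Cdh11 call in DMSO was lost without DMSO vehicle 2, 3 or 4 or DMSO acetate 1, 3 or 4 (log2 fold change 0.48 to 0.81 over all such fits), its call with the inhibitor without inhibitor vehicle 1 (0.58), and that of Cdh13 without inhibitor vehicle 3.

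Genes whose proteins act on or with protocadherins were the last group. Of 19 partner genes 8 rose and 2 fell in DMSO (median 0.16), and 5 rose and 0 fell with the inhibitor (median 0.26). These are 42.1% and 10.53% of the list in DMSO, beside 23.7% and 27.5% of all tested genes, and 26.3% and 0% with the inhibitor, beside 14.5% and 20.6%. Among subunits of the WAVE complex, which builds actin networks at the membrane, Wasf2 fell by 0.98 (edgeR's adjusted p = 0.000381) in DMSO, where Nckap1 rose by 0.54 and Brk1 by 0.41, and Cyfip2 rose by 0.50 with the inhibitor. Nlgn1, a postsynaptic adhesion gene, and Fyn, a kinase bound by protocadherins, rose by 0.88 and 0.28 with the inhibitor. Among genes of gamma-secretase, a protease that cleaves clustered protocadherins, Ncstn fell by 0.50 and 0.32 (edgeR's adjusted p = 4.89e-05 and 0.0038), while Psenen rose by 0.51 in DMSO and Aph1b by 0.62 with the inhibitor.

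Marker lists moved with acetate as follows, in DMSO and then with the inhibitor. Pan-neuronal markers rose in 12 and 11 of 14 (median 0.62 and 0.53). Microglial markers fell in 13 and 13 of 13 (median -4.40 and -3.71), meningeal markers in 10 and 9 of 11, astrocyte markers in 7 and 6 of 12, oligodendrocyte markers in 8 and 6 of 10, and vessel markers in 6 and 5 of 9, with 1 vessel marker risen in DMSO. The summed level of the oligodendrocyte list did not follow its count: its mean was 484 CPM in DMSO vehicle and 843 CPM with acetate, and 547 and 768 CPM with the inhibitor, with overlapping ranges in both arms. On the scale of pan-neuronal markers the fold changes of Wiz, Pcdh20, Cdh11 (in DMSO), Cdh13, Nckap1, Brk1, Cyfip2 (with the inhibitor), Fyn and Psenen turned negative. The part of these cells in the changes of the regulators, adhesion genes and proteases was not tested.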

How the data were processed

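RNA of 15 libraries was sequenced by the submitters after QIAzol and RNeasy extraction and strand-specific library preparation, per the labels' protocols. Raw read counts per gene symbol, with no normalization, are what the authors deposited. Per the submitters' processing notes, STAR 2.5.2a, HTSeq 0.6.1p1, DESeq2 and mm10 were used. For annotation, counting mode and strandedness nothing is given in the sources used here. The 5 summary lines that name no gene (38.9% to 47.4% of a library) were left out.

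Counts were analysed with edgeR 4.0.16 in R 4.3.3: default expression filter, TMM factors of 0.885 to 1.13, one quasi-likelihood fit over all 15 libraries, a mean per group, and Benjamini-Hochberg adjustment over 15075 genes at 0.05. The SE is the log2 fold change divided by the square root of F, log2 CPM used a prior count of 2, and the fit was tested on simulated data. Positions and unshared exonic lengths came from GENCODE M21, where 57 members matched by symbol and Pcdha10 by its start (the release names that gene Pcdha11). Groups and replicate numbers came from the labels, which do not state separate cultures, so p-values measure only the spread between these samples, which may be technical. Chi-square per gene was 4.65 to 144 over 21 within-group pairs, so no library copied another of its group.

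Members, lists and tests were chosen with earlier results of these data known. Named genes are the 3 most abundant of each cluster, up to 4 per cluster and comparison with the smallest p among those past the threshold, the C-type genes, up to 3 per related list and acetate arm, and Ctcf, Rad21 and Smchd1. A list gene that this rule names, and the counts of its list, are not reported here. The alternatives were other scalings (DESeq2 size factors, upper quartile, pan-neuronal markers), DESeq2 1.42.0, no filter, only the compared groups, a replicate block, the non-neuronal score as a covariate, and leaving out libraries.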

Additional observations from a re-analysis of the deposited data

Results flagged for a closer look

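In 3 of 57 groups of libraries, over 19 quantities, a single library lay far from the others of its group; chance gives about 1 in 20 such groups. Pcdha10 had 1.09 CPM in DMSO vehicle 1, against 0.574 to 0.649 CPM in the other 3 libraries. Pcdhb18 had 4.91 CPM in inhibitor acetate 2, against 6.35 to 6.61 CPM, and Pcdhgc5 had 9.87 CPM in the same library, against 7.75 to 8.02 CPM.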

How the results depend on the processing

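With acetate in DMSO, 18 members fell under DESeq2 size factors and without a count filter, and 1 rose. Scaled on pan-neuronal markers, 42 fell and 0 rose; with the score as a covariate 1 fell and 0 rose; without DMSO vehicle 1 and inhibitor vehicle 2, 20 fell and 2 rose. Leaving out single libraries gave 16 to 20 fallen and 1 to 2 risen. With the inhibitor, where 2 rose and 0 fell, these settings gave in the same order 0 risen and 21 fallen, 0 and 1, and 8 and 4; leaving out single libraries gave 0 to 6 risen and 0 to 2 fallen. For the difference of responses DESeq2 called 1 member higher, and leaving out single libraries gave 0 to 4. For the inhibitor without acetate DESeq2 called 4 lower and the covariate fit 6, with 0 to 4 when single libraries were left out. For the inhibitor with acetate, 2 were higher when only the compared groups were fitted, 1 without DMSO vehicle 1 and inhibitor vehicle 2, and 0 to 1 without single libraries. The shares of all tested genes called under these settings are not given here, and the cause of these shifts was not tested.

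Scaled on pan-neuronal markers, the log2 ratio of totals with acetate in DMSO was -0.78 for alpha, -0.65 for beta and -1.38 for gamma, and with the inhibitor 0.25, -0.35 and -0.70; beta was 0.23 for inhibitor against DMSO with acetate. With plain gene totals, beta was -0.19 for acetate in DMSO and 0.23 for the inhibitor with acetate. Log2 fold changes that reversed on the pan-neuronal scale were, in DMSO, Pcdhb18 -0.039, Wiz -0.27, Pcdh20 -0.30, Cdh11 -0.038, Nckap1 -0.12, Brk1 -0.28 and Psenen -0.19, and with the inhibitor Wiz -0.22, Pcdh20 -0.32, Cdh13 -0.30, Cyfip2 -0.026, Fyn -0.25 and Pcdhgc4 -0.20. With the covariate, Cdh11 in DMSO was -0.019, and Pcdhgc3 and Pcdhgc5 with the inhibitor were 0.057 and 0.33; 28 calls of named genes were lost. Without DMSO vehicle 1 and inhibitor vehicle 2, Pcdhac2 and Pcdhgc4 in DMSO were 0.23 and 0.022. Pcdhgc5 with the inhibitor was 0.00017 in DESeq2. The cause was not tested.

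Without single libraries, the log2 fold change with acetate in DMSO ranged from -0.19 to 0.22 for Pcdhac2 and from -0.28 to 3.49e-05 for Pcdhgc4, and with the inhibitor from -0.21 to 0.12 for Pcdhgc5; none of these passed over all libraries.

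Replicate numbers showed no clear pairing of libraries. Deviations of 21 same-numbered pairs correlated at -0.65 to 0.38, 6 of them above 0.1, and 2 of 15 libraries correlated best with their own number. DMSO vehicle 1 and inhibitor vehicle 2, which stood apart from their groups, correlated at 0.74. Such libraries weigh on these values, which therefore cannot show whether same-numbered libraries shared a culture. A replicate block gave 21 fallen members in DMSO, 4 risen with the inhibitor, 2 fallen for the inhibitor without acetate, and 0.057 for Pcdhgc5 with the inhibitor. Depth limits members near the level of 3 counts, 0.0832 to 0.162 CPM.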
